A study of Mus musculus with 8 samples.

Results

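The 9 genes described here are regulators and markers of the oral epithelium and of periderm, the flat outermost cell layer of embryonic epithelium. They are the transcription factor genes Trp63, Grhl1, Grhl2, Grhl3, Ovol1 and Ovol2, the splicing factor genes Esrp1 and Esrp2, and Epcam, a gene for an adhesion molecule of epithelial cell surfaces. The genes were chosen by symbol, and all probe sets annotated with exactly 1 of these symbols were taken, which gave 18 of the 45037 probe sets on the array. A probe set is a group of short probes that together read 1 transcript or, in some probe sets, several. A filter on low signals kept 14 of the 18, with at least 1 for each gene, of 27022 kept in all.

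The arrays measured total RNA of palatal shelves, which grow from the upper jaw and fuse to form the palate, from mouse embryos at embryonic day 14.5. There were 4 arrays of R26Pax3/Pax3 shelves and 4 of wild type littermates, and the strain given for both is C57BL/6 X SV129. The name R26Pax3 stands for an allele that places Pax3, a transcription factor of neural crest and muscle precursors, at the Rosa26 locus. No driver line, promoter or expressing cell type is named in the labels, and they do not say whether a sample was 1 embryo or a pool, so the tests measure the spread between these samples. Each array keeps the number of its label, so the R26Pax3/Pax3 replicates are 1, 3, 4 and 7, and those of wild type are 2, 6, 8 and 11.

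Epithelium lines the shelves as a thin sheet over a core of mesenchyme, so most RNA of a dissected shelf comes from other cells. Trp63 encodes p63, the p53 relative needed for stratified epithelium, and p63 acts in the basal layer below the periderm. The grainyhead-like factors Grhl1 to Grhl3 switch on genes of junctions and barrier, the zinc finger factors Ovol1 and Ovol2 hold down mesenchymal genes such as Zeb1, and Esrp1 and Esrp2 set the epithelial form of many spliced messages. In the mouse, loss of Trp63, or of Esrp1 alone or with Esrp2, gives a cleft in the face or palate. In bulk tissue, a lower number of epithelial cells and less RNA per epithelial cell cannot be told apart.

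Promoter windows were at hand in RefSeq (assembly GRCm38.p6) for 4 of the 9 genes, and those of Epcam and Grhl3 are shown because they carry letters that factors of this group, or their mesenchymal counterparts, are described to bind. Each runs from 250 bases before to 50 bases after a transcript start, 5′ to 3′ on the gene's strand. Capitals mark CACCTG or its reverse complement CAGGTG, the E-box read by Zeb and Snail factors, and ACCGGT, the core of the grainyhead site, which is its own reverse complement.
Epcam promoter, chr17:87635729-87636028, plus strand: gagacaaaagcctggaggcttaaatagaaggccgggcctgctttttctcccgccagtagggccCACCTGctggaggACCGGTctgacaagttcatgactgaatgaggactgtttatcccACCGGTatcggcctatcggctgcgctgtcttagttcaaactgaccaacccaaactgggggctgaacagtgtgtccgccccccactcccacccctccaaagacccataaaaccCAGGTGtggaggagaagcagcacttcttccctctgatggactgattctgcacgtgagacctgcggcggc
Grhl3 promoter, chr4:135573583-135573882, minus strand: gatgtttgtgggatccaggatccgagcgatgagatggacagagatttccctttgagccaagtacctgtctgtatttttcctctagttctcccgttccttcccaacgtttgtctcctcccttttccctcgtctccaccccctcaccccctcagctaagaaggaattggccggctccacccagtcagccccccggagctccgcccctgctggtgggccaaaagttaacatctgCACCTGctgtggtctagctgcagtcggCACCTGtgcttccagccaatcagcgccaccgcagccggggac
The Epcam window held the E-box 2 times, beginning 187 and 19 bases before the start, and ACCGGT 2 times, beginning 174 and 131 bases before it. The Grhl3 window held the E-box 2 times, beginning 19 bases before and 8 bases after the start, and no ACCGGT. Neither motif was in the window of Ovol2 or in the 2 windows of Grhl1. CCGTTA, the core of the Ovol site, was on neither strand of any of the 5 windows. Among 32851 promoter windows of the same length, 20.2% held the E-box, 2.33% held ACCGGT and 2.76% held CCGTTA. A match is a string of letters and not a measured site, and binding was not measured here.

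Pax3 checks the labels. Its brightest probe set read 141.9 to 176.4 in wild type and 532.4 to 721.5 in R26Pax3/Pax3, a log2 difference of 1.83 (SE 0.113, limma adjusted p = 1.59e-05). The arrays were alike in scale, with median signals of 43.5 to 44.9. No detection calls were at hand, so the median of each array served as a working limit, chosen and not measured. A signal at or below it is read here as one that cannot be told from background. Differences are R26Pax3/Pax3 minus wild type on the scale log2(signal + 16), which understates the change of dim genes. Of the general epithelial markers 30 of 33 measured lay above the array median on all 8 arrays, as did 14 of 14 palate mesenchyme markers.

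None of the 14 tested probe sets of the 9 genes was called between genotypes, and the limma adjusted p-values lay between 0.965 and 1. Over the whole array 4 probe sets were called, 0.0148% of those tested. In the set of 14, 12 had a higher mean and 2 a lower mean in R26Pax3/Pax3, with a median log2 difference of 0.11 beside 0.00 over all probe sets tested, of which 50.3% were higher. An unadjusted p under 0.05 was reached by 2 of the 14, both higher, where 4.86% of all probe sets reached it. These were Esrp2 1433683_at and Grhl2 1431877_a_at, the latter below the median of every array. On the brightest probe set of each gene, 7 of the 9 genes were higher, beside 49.0% of all genes. By that count 1 of the 9 reached an unadjusted p under 0.05. The genotypes overlapped on every one of the 18 probe sets, while 2.73% of all probe sets tested showed no overlap. The 95% intervals of the brightest probe sets that lay above the array medians on all 8 arrays were narrow for Epcam, at 0.881-fold to 1.19-fold on the scale with 16 added, and for Grhl2, at 0.837-fold to 1.15-fold. They reached 1.38-fold for Esrp1, 1.40-fold for Trp63 and 1.58-fold for Esrp2. For Grhl3 the interval ran from 0.783-fold to 1.36-fold.

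**Figure D1:**
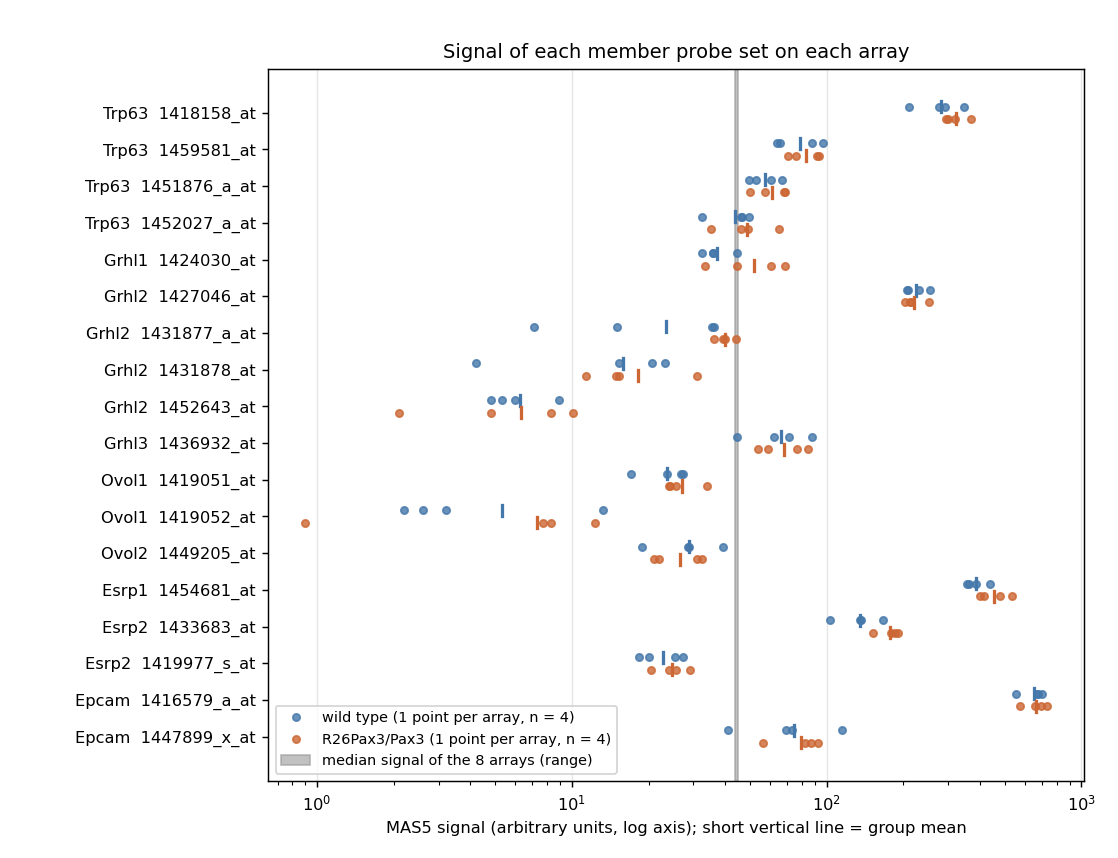
MAS5 signal (log axis) of the 18 probe sets of the 9 genes, with 1 point per array, 4 wild type in blue and 4 R26Pax3/Pax3 in orange, group means as short lines and the range of the array medians, 43.5 to 44.9, as a grey band. In 8 probe sets every array lies above its median, in 7 every array lies below it, and the genotypes overlap in each row.

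Signals placed the genes in 3 classes. At least 1 probe set of Trp63, Grhl2, Grhl3, Esrp1, Esrp2 and Epcam lay above the array median on all 8 arrays. The single probe set of Grhl1 lay near the median. Those of Ovol1 and Ovol2 lay below it on every array, so neither gene could be told from background in either genotype.

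Trp63 was read by 4 probe sets. The brightest, 1418158_at, gave 275.7, 292.5, 347.3 and 210.7 in wild type replicates 2, 6, 8 and 11 and 294.3, 320.0, 368.7 and 300.4 in R26Pax3/Pax3 replicates 1, 3, 4 and 7. Wild type replicate 11 was the lowest and R26Pax3/Pax3 replicate 4 the highest, and the ranges overlapped. The means were 282 ± 56.3 and 321 ± 33.7 (SD, n = 4 each), a log2 difference of 0.19 (SE 0.136, 95% interval -0.10 to 0.49, limma adjusted p = 1). Without wild type replicate 11 the difference was 0.07. The 4 arrays deposited first, 2 of each genotype, gave -0.05, and the 4 deposited last gave 0.44. The labels do not call these sets batches. The other probe sets of Trp63 gave log2 differences of 0.07, 0.07 and 0.11, from wild type means of 78.5, 57.3 and 43.8. On all 4 the mean was higher in R26Pax3/Pax3 and the interval spanned 0. Which isoforms of p63 each probe set reads was not determined here.

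Grhl2, the grainyhead-like factor of junction genes in simple and stratified epithelium, had the smallest spread over the 8 arrays among the brightest probe sets of the 9 genes. Its brightest probe set, 1427046_at, gave 209.1, 254.7, 229.8 and 206.0 in wild type replicates 2, 6, 8 and 11 and 252.8, 213.6, 212.2 and 202.9 in R26Pax3/Pax3 replicates 1, 3, 4 and 7. The highest array was 1.26 times the lowest, and each genotype had 1 array above 250 units and the rest between 202.9 and 229.8. The log2 difference was -0.03 (SE 0.105, 95% interval -0.26 to 0.20, limma adjusted p = 1). A second probe set, 1431877_a_at, had the largest difference of the 14, at 0.58 (SE 0.246, limma adjusted p = 0.996), from 23.5 ± 14.7 to 39.9 ± 3.35 (SD, n = 4 each). All 8 of its values lay below the array medians, and the difference rested on wild type replicates 2 and 6, at 7.1 and 15.0, beside 36.2 and 35.6 in replicates 8 and 11. No change of Grhl2 is therefore read from it. The remaining 2 probe sets of Grhl2 did not pass the filter and averaged 6.25 to 18.2 in the groups.

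Grhl1 and Grhl3 were dimmer. Grhl3, the grainyhead-like factor of periderm and of epidermal barrier, gave 87.6, 44.5, 62.2 and 70.9 in wild type replicates 2, 6, 8 and 11 and 84.4, 53.6, 76.2 and 58.6 in R26Pax3/Pax3 replicates 1, 3, 4 and 7. Its lowest and highest arrays were both wild type, and the log2 difference was 0.04 (SE 0.182, 95% interval -0.35 to 0.44, limma adjusted p = 1). Grhl1, which acts in desmosome genes of the epidermis, gave 32.4 to 44.4 in wild type, below the median of each array. In R26Pax3/Pax3 it gave 60.5 and 68.6 in replicates 1 and 4, above the medians, and 33.2 and 44.4 in replicates 3 and 7, not above them. The log2 difference was 0.32 (SE 0.18, 95% interval -0.07 to 0.72, limma adjusted p = 1). Since the wild type values cannot be told from background, no fold is given. Without R26Pax3/Pax3 replicate 4 the difference was 0.21, and without replicate 3 it was 0.47. The 3 grainyhead-like genes did not peak on the same R26Pax3/Pax3 array, as Grhl1 was highest in replicate 4 and Grhl2 and Grhl3 in replicate 1.

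The Ovol genes gave only signals that cannot be told from background. Ovol1 read 17.0 to 27.4 in wild type and 24.1 to 33.9 in R26Pax3/Pax3 on its brighter probe set, with a log2 difference of 0.12 (SE 0.159, limma adjusted p = 1). Its other probe set, which the filter left out, read 0.9 to 13.3 over all arrays. Ovol2 read 18.8 to 39.3 in wild type and 21.0 to 32.3 in R26Pax3/Pax3, a log2 difference of -0.07 (SE 0.18, limma adjusted p = 1). The array does not say whether the shelves express either gene at this stage.

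The epithelial splicing factors had the smallest p-values among probe sets above the array medians. Esrp2 gave 165.8, 102.8, 134.8 and 136.1 in wild type replicates 2, 6, 8 and 11 and 179.4, 152.0, 190.5 and 184.9 in R26Pax3/Pax3 replicates 1, 3, 4 and 7. Only R26Pax3/Pax3 replicate 3 fell inside the wild type range, below wild type replicate 2. The means were 135 ± 25.7 and 177 ± 17.1 (SD, n = 4 each), and their ratio was 1.31. The log2 difference was 0.36 (SE 0.135, 95% interval 0.07 to 0.66, limma adjusted p = 0.965). By unadjusted p it ranked 520 of the 27022 probe sets. The 4 arrays deposited first gave 0.44 and the 4 deposited last 0.29, and the value was 0.26 without wild type replicate 6. A second probe set of Esrp2, of a type whose probes are shared with other transcripts, read 18.3 to 29.1 and did not pass the filter.

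Esrp1 followed the same direction with a smaller difference. It gave 363.0, 384.4, 437.0 and 354.3 in wild type replicates 2, 6, 8 and 11 and 531.5, 413.9, 398.2 and 478.6 in R26Pax3/Pax3 replicates 1, 3, 4 and 7. R26Pax3/Pax3 replicates 3 and 4 lay below wild type replicate 8. The means were 385 ± 37.1 and 456 ± 61.4 (SD, n = 4 each), and their ratio was 1.18. The log2 difference was 0.23 (SE 0.108, 95% interval -0.01 to 0.47, limma adjusted p = 1). The 4 arrays deposited first gave 0.19 and the 4 deposited last 0.27. The array with the highest Esrp1, R26Pax3/Pax3 replicate 1, was not the one with the highest Esrp2, which was replicate 4.

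Epcam, whose product joins epithelial cells and is a common surface marker of them, had means that lay closer than the spread within either genotype. Its main probe set, 1416579_a_at, gave 697.1, 553.1, 666.4 and 677.7 in wild type replicates 2, 6, 8 and 11 and 690.8, 575.8, 657.1 and 734.7 in R26Pax3/Pax3 replicates 1, 3, 4 and 7. Each genotype had 1 low array, wild type replicate 6 and R26Pax3/Pax3 replicate 3. The means were 649 ± 64.9 and 665 ± 67.2 (SD, n = 4 each), a log2 difference of 0.03 (SE 0.0998, 95% interval -0.18 to 0.25, limma adjusted p = 1). A second probe set, of a type with probes that can also bind unrelated transcripts, read 40.9 to 114.7 and had a log2 difference of 0.12 (SE 0.224, limma adjusted p = 1). Both probe sets were lowest in wild type replicate 6, but the second was highest in wild type replicate 11 and the first in R26Pax3/Pax3 replicate 7.

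**Figure D2:**
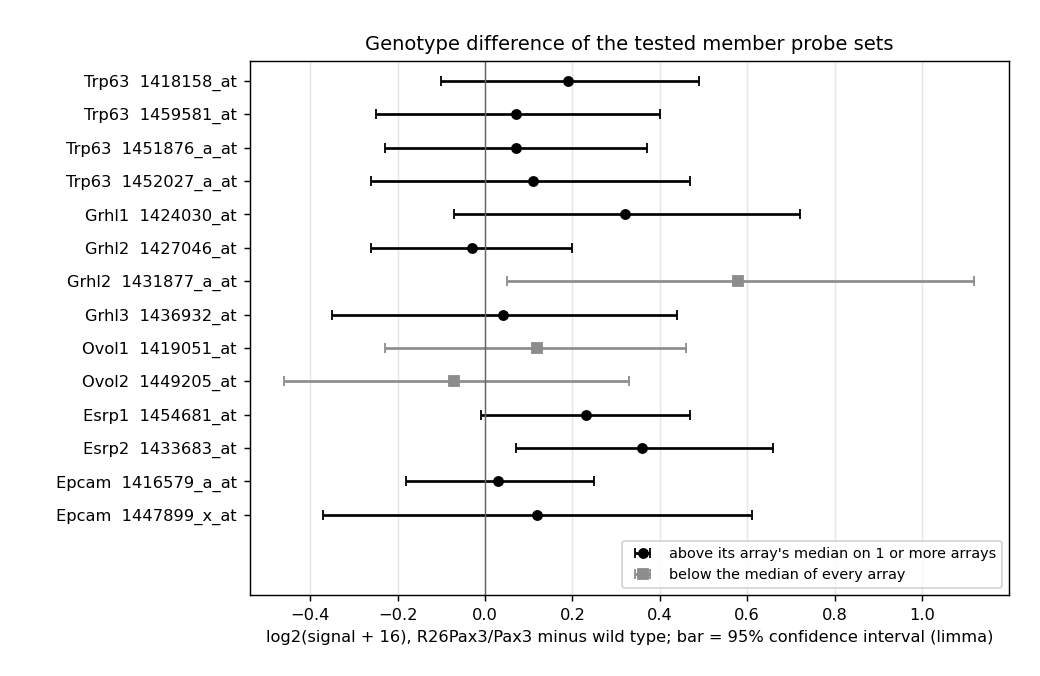
Log2 difference between R26Pax3/Pax3 and wild type for the 14 tested probe sets, with limma's 95% confidence interval as a bar; grey squares lie below the median of every array. The intervals of all but Esrp2 1433683_at (0.07 to 0.66) and Grhl2 1431877_a_at (0.05 to 1.12) include 0.

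Single arrays were the lowest or the highest for several of the genes. Wild type replicate 6 had the lowest value of 4 of the 9 genes, namely Grhl3, Ovol1, Esrp2 and Epcam, and R26Pax3/Pax3 replicate 4 the highest of 4, namely Trp63, Grhl1, Ovol1 and Esrp2, each on its brightest probe set. Ovol1 is in both counts although its signals lay below the array medians. Wild type replicate 6 also had the highest value of Grhl2, at 254.7. The mean of the 33 epithelial markers, a list that leaves out the 9 genes, was also lowest in wild type replicate 6, at 7.81 on the log2 scale. It lay between 7.81 and 7.90 in wild type (summed signals 10876 to 12164) and at 8.13, 7.83, 7.99 and 8.13 in R26Pax3/Pax3 replicates 1, 3, 4 and 7 (10867 to 14858).

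The level of each gene was set against that epithelial mean over the 8 arrays, which made 9 relations tested by exact permutation. None passed after Benjamini-Hochberg adjustment. The largest were those of Esrp1 (Pearson r = 0.80, exact permutation p = 0.019, adjusted p = 0.11, Spearman rho = 0.667, exact permutation p = 0.083, adjusted p = 0.249), Esrp2 (r = 0.769, exact permutation p = 0.024, adjusted p = 0.11, rho = 0.762, exact permutation p = 0.037, adjusted p = 0.249) and Epcam (r = 0.713, exact permutation p = 0.045, adjusted p = 0.136, rho = 0.714, exact permutation p = 0.058, adjusted p = 0.249). Without R26Pax3/Pax3 replicates 1 and 7, the arrays farthest from the median of the epithelial mean, the pooled r was 0.169 for Esrp1, so its pooled relation no longer held, while leaving out 1 array at a time gave 0.675 to 0.848. Without both, the pooled r was 0.805 for Esrp2 and 0.621 for Epcam. With each genotype's mean taken away, arrays were permuted within genotype. Epcam then had r = 0.83 (exact permutation p = 0.01, adjusted p = 0.094). For Esrp1 r was 0.659 (exact permutation p = 0.174, adjusted p = 0.434), and for Esrp2 0.571 (exact permutation p = 0.04, adjusted p = 0.18). The farthest arrays were chosen anew on that scale, R26Pax3/Pax3 replicate 3 among them. Without them r was 0.663 for Epcam, 0.709 for Esrp1 and 0.461 for Esrp2. For Trp63 and Grhl2 the pooled r was 0.222 and -0.015 (exact permutation p = 0.61 and 0.974, adjusted p = 0.686 and 0.974). The first and last 4 arrays deposited hold too few arrays for a value of their own.

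**Figure D3:**
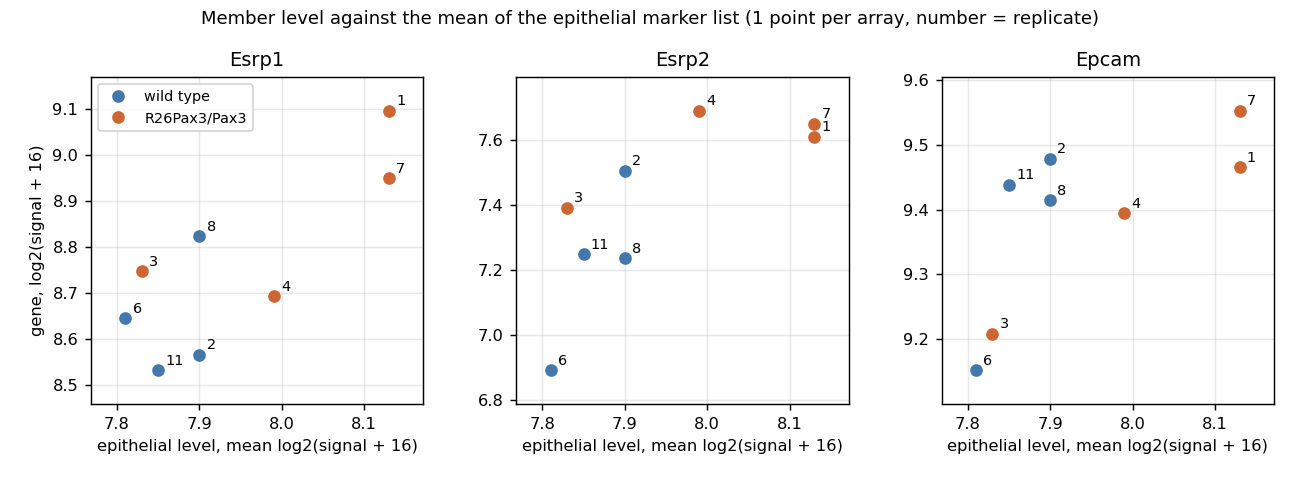
Level of Esrp1, Esrp2 and Epcam against the mean of the 33 epithelial markers, both in log2(signal + 16), with 1 point per array and the replicate number beside it. R26Pax3/Pax3 replicates 1 and 7 have the highest epithelial mean, 8.13, and wild type replicate 6 has the lowest, 7.81.

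Likeness over the 8 arrays was measured by Pearson r after each genotype's mean was taken away, among 12328 other genes. With so many genes and so few arrays high values are common, and they are given as a description. Nearest to Epcam was Krt6a, a keratin of periderm and of stratified epithelium (r = 0.988), followed by Dcn, a matrix proteoglycan of mesenchyme (r = 0.981), and Chodl (r = 0.977). Esrp2 was the 67th nearest to Epcam (r = 0.86) and Grhl3 the 452nd (r = 0.693). Nearest to Trp63 were Tac1, Pcdh10 and Lama2 (r = 0.96, 0.954 and 0.954), and nearest to Grhl2 were Hnrnpa0, Fam160b2 and Fam107b (r = 0.978, 0.973 and 0.969). None of these 6 is a general marker of epithelium. Trp63 and Epcam themselves had an r of -0.255, and Grhl2 and Epcam -0.435.

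Genes described as activated by these factors were read from lists, with the brightest probe set of each gene. The lists share members, such as Krt14, Krt5 and Sfn, and the grainyhead list also holds Ovol1. Over all genes the median log2 difference was 0.00 and 49.0% were higher. Of 13 measured p63 targets, 9 were higher and 4 lower in R26Pax3/Pax3, with a median of 0.13, and 0 were called. The median was 0.07 without R26Pax3/Pax3 replicate 1 and 0.08 without wild type replicate 11. Krt14, the keratin of basal cells, read by a probe set of the less specific type, had 0.62 (SE 0.157, limma adjusted p = 0.599), Krt5, its partner, 0.43, Bcl11b 0.17 and Fras1 -0.15. Krt14 read 673.0 to 1034.9 in wild type and 1527.0, 938.1, 1304.6 and 1345.0 in R26Pax3/Pax3 replicates 1, 3, 4 and 7, so that only R26Pax3/Pax3 replicate 3 lay inside the wild type range. The difference of Trp63 itself was 0.19. Of 10 measured targets of grainyhead-like factors, 6 were higher and 4 lower, with a median of 0.17 and 0 called. Here 3 reached an unadjusted p under 0.05, beside 4.86% of all probe sets, namely Sfn, the 14-3-3 protein of stratified epithelium (log2 difference 0.56), Cldn4, a tight junction claudin (0.48), and Spint1, an inhibitor of membrane proteases (0.24). Rhov, a small GTPase, lay above the array median on only 3 of 8 arrays. On 2 of the 10, Sfn and Cldn4, the genotypes did not overlap, beside 2.73% of all probe sets. Sfn read 80.9 to 108.4 in wild type and 142.6 to 162.9 in R26Pax3/Pax3 (limma adjusted p = 0.378). Cldn4 read 121.6 to 136.6 against 137.5 to 283.1 (limma adjusted p = 0.965).

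Of 12 measured periderm genes, 7 were higher and 5 lower, with a median of 0.03 and 0 called. The median was 0.21 without R26Pax3/Pax3 replicate 3. For Krt17 (0.96), Krt6a (0.88) and Sfn the genotypes did not overlap, 25% of the list beside 2.73% of all probe sets, and Krt7 had 0.27. The keratins Krt8, Krt18 and Krt19 had -0.03, -0.06 and 0.04. Krt6a read 359.3 to 655.8 in wild type and 667.9 to 1228.8 in R26Pax3/Pax3 (limma adjusted p = 0.504). Krt6a was picked as the nearest to Epcam from 12328 genes, and Epcam had 0.03 between genotypes. The cause of this contrast was not tested. Of 11 measured genes of the basal layer, 9 were higher, with a median of 0.14 and 0 called, among them Lama3, a laminin chain (0.36), and Itga6, an integrin (0.21). The basal median was 0.08 without wild type replicate 6 or 11, and 0.23 and 0.22 without wild type replicate 2 and R26Pax3/Pax3 replicate 3. In the list of 33 epithelial markers 22 were higher and 11 lower, with a median of 0.14 and 0 called, and 11 reached an unadjusted p under 0.05, all of them higher, beside 4.86% of all probe sets. The median was 0.08 without R26Pax3/Pax3 replicate 7. Pkp1 had 0.67, Cldn6 0.48 and Pkp3 0.34. The median of the 9 genes themselves was 0.12, and whether they differ from these lists was not tested.

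Of 10 mesenchymal genes that include Zeb1, Zeb2, Vim and the Snail genes, 3 were higher and 7 lower, with a median of -0.07 and 0 called. An unadjusted p under 0.05 was reached by 2 of the 10, Sparc and Snai1, both lower, beside 4.86% of all probe sets. Only for Cdh11, which was higher (0.07), did the genotypes not overlap, beside 2.73% of all probe sets. Sparc, a matrix glycoprotein, had -0.28, Snai1 -0.33, Twist1 -0.21 and Zeb2 0.31, none with a limma adjusted p under 0.977. Zeb1, which Ovol factors are described to repress, had -0.05. Of 10 genes that Esrp proteins splice, 4 were higher and 6 lower, with a median of -0.04 and 0 called. Ctnnd1 had -0.10, Scrib -0.09 and Cd44 -0.09. Nf2, at 0.09, was the only 1 of the 10 whose genotypes did not overlap, beside 2.73% of all probe sets. None of these limma fits reached an unadjusted p under 0.05. These probe sets were not resolved by exon, so a change of splicing would not be seen. Of 10 measured genes with described roles in palatal or oral epithelium, 4 were higher and 6 lower, with a median of -0.08 and 0 called. Tgfb3, the growth factor of the fusing edge, had -0.09, Shh -0.18 and Kdf1 0.30, while Nectin1 lay above the array median on 1 of 8 arrays. Of the 3 measured relatives of the 9 genes, Ubp1 and Tfcp2 had -0.03 and Trp73 had 0.01, and 0 were called.

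**Figure D4:**
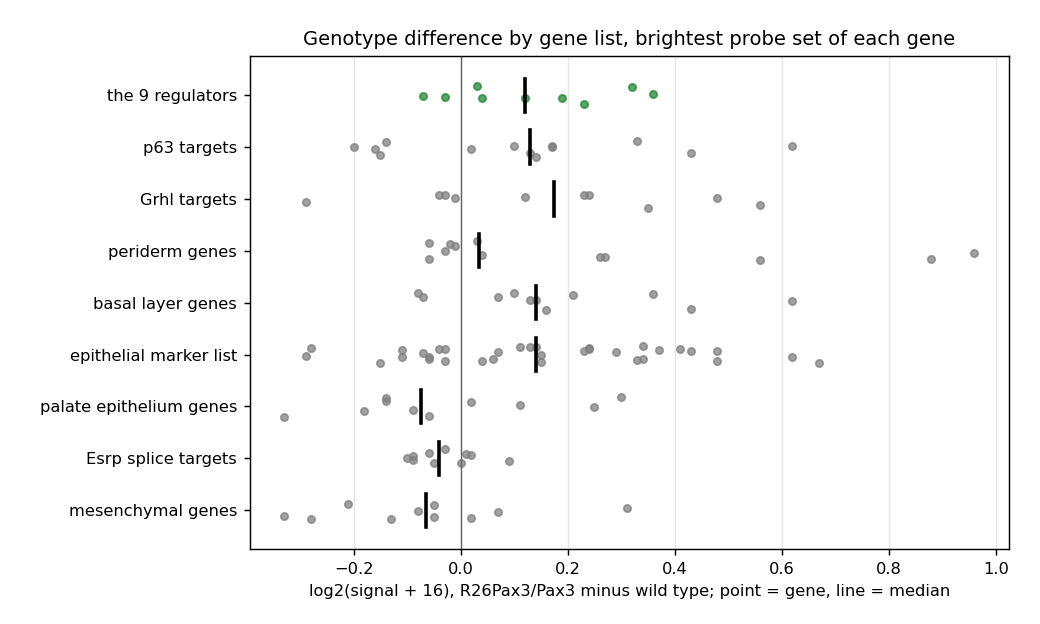
Log2 difference between R26Pax3/Pax3 and wild type, with 1 point per gene on its brightest probe set and the median of each list as a line. The 9 regulators (median 0.12) lie between -0.07 and 0.36, while the periderm list (median 0.03) reaches 0.96 at Krt17.

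The summed signals of other cell types varied between arrays, and their part in the differences above was not tested. Of 14 palate mesenchyme markers, 6 were higher and 8 lower, with a median of -0.04 and a summed signal of 26319 to 29894 in wild type and 24117 to 26808 in R26Pax3/Pax3. Of 11 measured skeletal muscle markers, 11 were lower, with a median of -0.65, and their sum ranged from 2568 to 6932 in wild type and from 767 to 6126 in R26Pax3/Pax3. Without R26Pax3/Pax3 replicate 7 the muscle median was -0.07, and it was 0.09 in the 4 arrays deposited first and -1.33 in the 4 deposited last. Of 11 neuronal markers, 11 were higher (median 0.52, sums 693 to 2312 and 1297 to 2144), as were 4 of 4 measured red cell markers (median 0.33, sums 4857 to 5814 and 5034 to 7696). The neuronal median was 0.05 in the 4 arrays deposited first and 1.01 in the 4 deposited last. Endothelial markers (7 of 10 higher, median 0.03, sums 1824 to 1974 and 1821 to 2107) and macrophage markers (6 of 9 higher, median 0.03, sums 1874 to 2239 and 1674 to 2679) were mixed. None of these markers was called.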

How the data were processed

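Total RNA (6 µg per labelling reaction, per the labels' protocols) was hybridised to 1-colour Affymetrix arrays. The authors deposited 1 signal intensity for each probe set on a linear scale, and the submitters' processing notes name MAS5. The version, genome build and detection calls are not given in the sources used here. The mean without the lowest and highest 2% was 150 on each array, so a change shared by most genes would be hidden. Probe sets were named from the platform annotation: 34945 had 1 symbol, 932 several and 9160 none, and 64 control probe sets were left out.

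Values were taken as log2(signal + 16) with no further normalization, and the filter kept probe sets whose mean exceeded the 40th percentile. Genotypes were compared across all kept probe sets with limma 3.58.1 (lmFit, eBayes with trend, R 4.3.3) and Benjamini-Hochberg adjustment, and those with adjusted p under 0.05 were called. The procedure was tested on simulated data. The number of arrays limits the precision. Alternatives changed the pseudocount, filter, normalization, trend, block, arrays and choice of probe set. The 9 genes and all lists were chosen with earlier results of these data known. The named genes are the 9, up to 4 per list by smallest p (2 for lists of other cell types), 3 nearest genes for Trp63, Grhl2 and Epcam, and Pax3. Zeb1, Cdh11, Krt8, Krt18, Krt19 and Sp6 were named after their values were seen. Genes of a list that lack a probe set with 1 symbol were not analysed here.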

Additional observations from a re-analysis of the deposited data

Results flagged for a closer look

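In 2 of 72 groups of 4 values, those of the 18 probe sets and of the list means, 1 value stood apart from the other 3 by more than the limit of Dixon's test at 95%. Chance flags about 1 in 20 groups. Both were probe sets of Ovol1 with signals below the array medians. On 1419051_at, R26Pax3/Pax3 replicate 4 read 33.9, where the other arrays of that genotype read 24.1 to 25.6. On 1419052_at, which the filter left out, wild type replicate 2 read 13.3, where the others read 2.2 to 3.2.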

How the results depend on the processing

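None of the probe sets of the 9 genes was called under any alternative tried. The whole array gave 4 calls, 4 to 9 when 1 array was left out (9 without R26Pax3/Pax3 replicate 3), and 8 and 11 in the first 4 and the last 4 arrays deposited. No paired analysis was made, because no label used here says which samples shared a litter. Pseudocounts of 1 and 64 and quantile normalization reversed no difference of the 14 probe sets. The filter, the intensity trend and the balanced block cannot change a log2 difference and bear only on the calls, and at the 60th percentile only 6 of the 14 were tested. Within the first 4 arrays the log2 difference turned to -0.05 and -0.12 for Trp63 (1418158_at and 1459581_at) and 0.09 for Ovol2, and within the last 4 to -0.01 and -0.15 for Trp63 (1451876_a_at and 1452027_a_at), -0.19 for Grhl3 and -0.06 for Epcam 1447899_x_at. Leaving out 1 array gave ranges across 0 of 0.00 to 0.16 for Trp63 1459581_at, -0.01 to 0.21 for Trp63 1452027_a_at, -0.09 to 0.03 for Grhl2 1427046_at, -0.10 to 0.16 for Grhl3, -0.18 to 0.04 for Ovol2, -0.04 to 0.10 and -0.08 to 0.32 for the probe sets of Epcam. For the lists, medians in the first 4 and the last 4 arrays were -0.04 and 0.21 for p63 targets, 0.06 and -0.22 for palate epithelium, 0.19 and -0.05 for endothelial, 0.14 and 0.51 for red cell, 0.09 and -1.33 for skeletal muscle and 0.05 and 1.01 for neuronal genes. Within the last 4 they were 0.28 for grainyhead-like targets, -0.24 for mesenchymal genes and 0.29 for periderm genes, and within the first 4 0.03 for Esrp splice targets. With 1 array left out the medians ranged from -0.12 (without wild type replicate 6) to -0.03 for mesenchymal genes, -0.06 to 0.02 (without R26Pax3/Pax3 replicate 4) for Esrp splice targets and -0.01 to 0.21 (without R26Pax3/Pax3 replicate 3) for periderm genes. The relation to the epithelial mean turned for Trp63 (r = -0.102 within genotype, an alternative listed after seeing the data, and -0.037 to 0.307 with 1 array left out) and Grhl2 (r = 0.082 within genotype, 0.003 with a pseudocount of 1, 0.03 with quantile normalization and -0.536 to 0.346 with 1 array left out). The cause was not tested. Signals below the array medians, as for both Ovol genes, Grhl1 in wild type and 1431877_a_at of Grhl2, limit what can be read there.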

Other observations

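All 8 of 8 measured markers of ciliated nasal epithelium were lower in R26Pax3/Pax3, with a median log2 difference of -0.50 (-0.32 without R26Pax3/Pax3 replicate 3), and 0 were called. Ccdc39, a gene of ciliary axonemes, had -0.76 (limma adjusted p = 0.866) and Cfap126 -0.66 (limma adjusted p = 0.926). The genotypes overlapped for every gene of the list, and its summed signal was 1074 to 1647 in wild type and 580 to 1535 in R26Pax3/Pax3. R26Pax3/Pax3 replicate 1 had the highest sum of its genotype and replicate 3 the lowest. The labels do not say how much nasal epithelium the dissected shelves held.

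Of the tooth germ epithelium genes 3 of 7 on the array passed the filter. Of these 3, 1 was higher and 2 lower in R26Pax3/Pax3, with a median log2 difference of -0.18 and 0 called. Ambn, an enamel matrix gene, read 97.1 to 120.1 in wild type and 50.4 to 85.2 in R26Pax3/Pax3 (log2 difference -0.72, limma adjusted p = 0.398). It was the only 1 of the 3 whose genotypes did not overlap, beside 2.73% of all probe sets. Shh had -0.18. Sp6, above the array median on 1 wild type and 3 R26Pax3/Pax3 arrays, had 0.52. Of the salivary and glandular markers 2 of 7 passed, with -0.08 for Kit, while Sox10 lay above the array median on 3 of 8 arrays.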
